A study of Mus musculus with 12 samples.

Results

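A pair of responses to lipopolysaccharide (LPS), a component of the outer membrane of Gram-negative bacteria, were set side by side in the hippocampus of young C57BL/6J mice, an inbred laboratory strain. Each pup was injected under the skin on postnatal day 3 and into the abdomen on day 14, and whole hippocampi were taken on day 15, 24 h after the second injection. The SS group received saline on both days, SL received saline and then LPS, LS received LPS and then saline, and LL received LPS on both days. LPS was given at 5 mg/kg each time, no genotype other than the strain is given in the labels, and each of the 4 groups held 3 animals. All 12 of the 12 libraries of the study therefore entered the comparison. SL minus SS is the response to day-14 LPS in pups that had received saline on day 3, and LL minus LS is the response in pups that had already received LPS. The difference between these 2 differences, (LL minus LS) minus (SL minus SS), is called the interaction here. It was computed on log2(FPKM + 0.5) for 17687 genes, those with at least 0.5 FPKM (a read-pair count divided by gene length in kilobases and by the size of the library) in at least 3 libraries, of 54532 listed.

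LPS is bound by CD14 and sensed by the receptor TLR4, which signals through the adaptor MyD88 to the transcription factor NF-kB and through a second adaptor to type I interferon. NF-kB raises cytokines, chemokines and its own inhibitors, whereas interferon raises antiviral genes and the machinery of antigen presentation through STAT proteins. In macrophages and microglia that have met LPS before, a later dose is known to raise many inflammatory genes less, a state called endotoxin tolerance, while other genes of the response stay inducible.

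Libraries held 16979666 to 24105022 fragments in the listed genes. For a gene of 1 kb, a single fragment was worth 0.0402 to 0.0587 FPKM. The 12 hippocampal neuron markers were above 0 in all libraries, with summed levels of 1072 to 1264 FPKM, and limma called none of them in either response or in the interaction. At an unadjusted p under 0.05 there was 1 in each response and 0 in the interaction, and limma voom called 1 in SL against SS. Choroid plexus, the secretory tissue that borders the hippocampus in the ventricle, was present in unequal amounts. The sum of its 17 markers was 2359 to 2812 FPKM in SS, 681 to 945 in SL and 2404 to 3467 in LL, but in LS it was 1239 FPKM in replicate 1, 74.6 in replicate 2 and 39.8 in replicate 3. LS replicates 2 and 3 thus stood apart, and class counts of all genes and of most gene lists described are given with and without them. The 15 neutrophil markers summed to 125 to 249 FPKM in SL, against 2.79 to 4.11 in SS, 4.19 to 4.99 in LS and 7.98 to 9.43 in LL. In whole tissue, fewer cells of a type and less RNA per cell cannot be told apart.

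Without earlier LPS, day-14 LPS changed 1915 genes (10.8% of those tested, limma, adjusted p under 0.05), 1249 upward (7.06%) and 666 downward (3.77%). After LPS on day 3, it changed 470 genes (2.66%), 424 upward (2.4%) and 46 downward (0.26%). The interaction was called for 942 genes (5.33%), negative for 564 (3.19%) and positive for 378 (2.14%). Each gene was then placed in a class from these 3 calls. A response was lost where SL differed from SS, the interaction was called in the opposite direction and LL was not called against LS, and it was partly kept where LL was still called in the same direction. A response was turned where LL was called in the opposite direction, retained where both responses were called in the same direction with no called interaction, and unresolved where neither LL against LS nor the interaction was called.

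Of the 1249 rises, 405 were lost (2.29% of all tested genes), 130 partly kept (0.735%), 147 retained (0.831%), 565 unresolved (3.19%) and 1 turned (0.00565%). The remaining gene, Lgmn, rose in both and rose more in LL, the only enhanced response (0.00565%). Of the 666 falls, 206 were lost (1.16%), 45 turned (0.254%), 16 retained (0.0905%), 3 partly kept (0.017%) and 396 unresolved (2.24%). A response was gained, with a call in LL and in the interaction but none in SL, by 55 rises (0.311%) and 7 falls (0.0396%). Another 46 rises (0.26%) and 19 falls (0.107%) were called in LL alone with no called interaction, and 89 genes were called in the interaction alone, 68 positive and 21 negative. The lost class does not mean an LL response of 0: of the 405 lost rises, 271 had an LL estimate above LS, and 98 of those had an unadjusted p under 0.05. The filter on low values was passed only through the SL libraries by 72 of the 405 lost rises.

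Without LS replicates 2 and 3, which leaves LS with a single animal assumed to vary like the others, 259 rises were lost, 25 partly kept and 33 retained. In all libraries, the response of 790 genes (4.47%) was lost, partly kept or turned, and fewer genes were called so without those 2 libraries. With the choroid plexus score (the mean log2 level of its 17 markers) as a covariate, 83 genes were called so, 69 of them among the 790. By group mean, this score is high in SS and LL and low in SL and LS, the same pattern as the interaction. Group differences that go with the score are therefore taken out along with it. Within LS, replicate 1 had a centred score of 0.17, above the SL animals at -0.70 to -0.46.

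**Figure D1:**
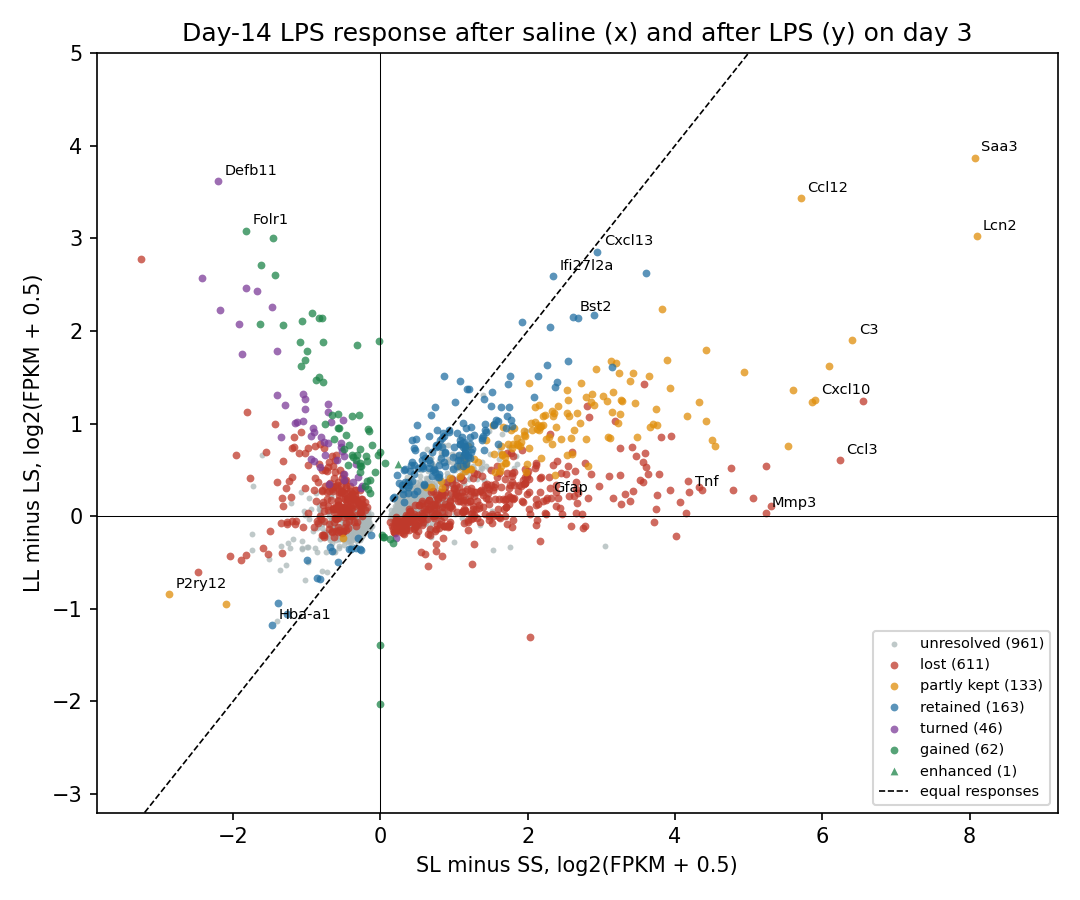
The day-14 response after saline on day 3 (SL minus SS, horizontal) and after LPS on day 3 (LL minus LS, vertical) of each gene in a named class, both in log2(FPKM + 0.5), with the dashed line where the 2 are equal. Lost rises lie along the horizontal axis, partly kept rises such as Lcn2, Saa3 and C3 lie below the line, and retained rises such as Cxcl13 and Bst2 lie near it.

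The size of the first response went with its class, in part by construction. SL minus SS sets the size and also enters the interaction, so small rises are less easily called in it. Among 753 rises of less than 1 log2 unit in SL, 22.97% were lost, 0.664% partly kept, 9.56% retained and 66.5% unresolved. Among the 31 rises of 4 log2 units or more, 48.4% were lost, 51.6% partly kept and none was retained or unresolved. Between these, 45.2% of 299 rises of 1 to 2 units were lost and 20.4% retained, and 49.4% of 166 rises of 2 to 4 units were lost and 8.43% retained. The median share of the log2 rise that was kept in LL was 22.4%, 31.6%, 26.4% and 16.8% from the smallest to the largest rises. Over all 1249 rises, the median was 0.78 log2 units in SL against SS and 0.20 in LL against LS, beside medians of -0.0036 and -0.0046 over all tested genes.

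The receptors and adaptors of LPS sensing rose in part in SL. Of 13 tested members of that list, 6 rose in SL and 3 in LL, and the interaction was negative for 5. Of the 6 rises in SL, 3 were lost, 2 partly kept and 1 unresolved. Lbp was called in LL but not in SL, with differences of 1.81 and 0.95. Its interaction of 0.87 was not called, with a 95% interval of -0.33 to 2.06. With LS replicates 2 and 3 left out, 7 rose in SL, and 3 of these were lost and 4 unresolved. Cd14, which hands LPS to TLR4, was at 1.20, 1.14 and 1.07 FPKM in SS against 43.4, 33.9 and 33.1 in SL, and at 2.31, 1.71 and 2.63 in LS against 4.45, 4.52 and 3.82 in LL. All SL animals were far above the other groups, and the LL animals were above the LS animals without overlap. Its log2 response was 4.50 (SE 0.13) without and 0.82 (SE 0.13) with LPS on day 3, an interaction of -3.68 (SE 0.19; adjusted p = 5.45e-06). Tlr4 itself, at 0.241 ± 0.0322 FPKM in SS against 0.655 ± 0.05 in SL, and 0.231 ± 0.0721 in LS against 0.465 ± 0.059 in LL (SD, n = 3), rose in SL by 0.64 and was 0.40 higher in LL than in LS. That LL difference had an adjusted p = 0.194 and the interaction of -0.24 had a 95% interval of -0.66 to 0.18, so Tlr4 was unresolved.

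Most of the rises among feedback inhibitors and NF-kB subunits were lost. Of 21 tested inhibitors and NF-kB subunits, 18 rose in SL, and of these 12 were lost, 3 partly kept, 3 unresolved and none retained. When LS replicates 2 and 3 were left out, 13 were lost and 5 unresolved. Nfkbia (chromosome 12, 55489410 to 55492647, mm10), which encodes the inhibitor that holds NF-kB in the cytoplasm, was at 9.34, 11.98 and 9.28 FPKM in SS and at 53.6, 46.1 and 38.1 in SL. It was at 12.7, 11.8 and 11.97 FPKM in LS and at 14.1, 14.4 and 13.3 in LL. Only the SL animals were high. The response was 2.11 (SE 0.12) in SL and 0.19 (SE 0.12) in LL, an interaction of -1.93 (SE 0.17; adjusted p = 7.34e-05). Irak3 (chromosome 10, 120141648 to 120202130), a kinase-like protein that blocks signalling from MyD88 and that is raised in tolerant macrophages, was at 3.65 ± 1.07 FPKM in SL. It was at 0.145 ± 0.0421 in SS, 0.269 ± 0.12 in LS and 0.485 ± 0.0237 in LL, with an interaction of -2.29 (SE 0.26; adjusted p = 0.000444). Neither Nfkbia nor Irak3 was called in LS against SS, with differences of 0.25 (adjusted p = 0.412) and 0.24 (adjusted p = 0.651). Socs3, an inhibitor of signalling by IL-6-type cytokines, rose by 3.94 in SL, and its LL difference was 0.86 (adjusted p = 0.0702).

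Most cytokines that rose in SL lost that rise after LPS on day 3. Of 16 tested, 11 rose in SL, and 7 of these were lost, 1 partly kept, 1 retained and 2 unresolved. Of the 11, 6 passed the filter on low values only through SL, Tnf and Il6 among them, 4 of them lost, so for these a rise and its absence elsewhere follow in part from the filter. In the fit lacking LS replicates 2 and 3, 7 were lost and 4 unresolved. Tnf (chromosome 17, 35199381 to 35202007), a lead cytokine of the LPS response, was at 7.86, 9.62 and 9.06 FPKM in SL and at 0.0982, 0.357 and 0.155 in LL. It was at 0.12, 0.0909 and 0.0331 FPKM in LS and, in SS, at 0.033 in 1 library and listed at 0 in the others. The ranges of LL and LS overlapped, and both lay far below SL. The response was 4.19 (SE 0.15) in SL and 0.26 (SE 0.15) in LL, with an interaction of -3.93 (SE 0.21; adjusted p = 5.45e-06). Il6, listed at 0 in all SS libraries, was at 1.13, 0.983 and 0.708 FPKM in SL, at 0.0185 in 1 LL library and listed at 0 in the other LL libraries, with an interaction of -1.59 (SE 0.24). Csf3, the growth factor of neutrophils, had an LL difference of -0.21 (SE 0.25) after a rise of 4.01 in SL. Il1b, the precursor of interleukin 1 beta, was the partly kept cytokine, with 16.0, 12.05 and 11.2 FPKM in SL against 0.443, 0.825 and 0.444 in LL and 0.155, 0.13 and 0.0854 in LS. Its LL rise of 0.76 had an adjusted p = 0.0456 and was called without SS replicate 1 or SL replicate 1. Without any of the other 10 libraries, it was not called, with an adjusted p of up to 0.167 and a difference between 0.599 and 0.844.

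Chemokines were divided among the classes. Of 19 tested, 15 rose in SL, and 7 of these were lost, 5 partly kept, 2 retained and 1 unresolved. All chemokines that passed the filter on low values only through SL were among the lost, so their class follows in part from the filter. The filter was passed only through SL by 4, and without LS replicates 2 and 3, 9 were lost, 2 retained, 4 unresolved and none partly kept. Ccl3 (chromosome 11, 83647844 to 83649355), which draws monocytes and T cells, was at 64.0, 58.1 and 39.7 FPKM in SL and at 1.21, 0.47 and 1.16 in LL, beside 0.706, 0.195 and 0.425 in LS. Its response was 6.24 (SE 0.30) in SL and 0.61 (SE 0.30) in LL, and LL and LS overlapped. Cxcl1 (chromosome 5, 90891241 to 90893115), which draws neutrophils, was at 27.0, 13.7 and 11.1 FPKM in SL and at 0.236, 0.528 and 0.429 in LL, with responses of 4.76 and 0.52 and an interaction of -4.23 (SE 0.37; adjusted p = 7.34e-05). Ccl12 (chromosome 11, 82101845 to 82103400), which draws monocytes, kept more: 55.6, 51.0 and 62.4 FPKM in SL, 7.57, 19.8 and 15.8 in LL and 0.549, 0.833 and 1.01 in LS. All LL animals were above all LS animals, and the responses were 5.70 (SE 0.29) and 3.43 (SE 0.29). Cxcl10 (chromosome 5, 92346638 to 92348889), raised by interferon, was at 31.3, 36.7 and 26.7 FPKM in SL and at 0.661, 1.32 and 0.939 in LL, with responses of 5.90 (SE 0.17) and 1.26 (SE 0.17; adjusted p = 0.00288). Cxcl13 (chromosome 5, 95956951 to 95961068), which draws B cells, was retained in full within its error. It was at 3.57, 2.66 and 4.87 FPKM in SL and at 3.04, 4.34 and 4.08 in LL, ranges that overlapped, against 0.257 or less in every SS and LS library. The responses were 2.95 (SE 0.21) and 2.86 (SE 0.21), and the interaction of -0.09 had a 95% interval of -0.76 to 0.58.

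Most rises of acute-phase and reactive astrocyte genes were lost. All 17 tested acute-phase genes rose in SL, and 11 were lost, 4 partly kept, 1 retained and 1 unresolved. Of the 17, 6 passed the filter only through SL, and all 6 are among the lost, so that their class follows in part from the filter. With LS replicates 2 and 3 left out, 13 were lost, 1 partly kept, 1 retained and 2 unresolved. The list median was 3.25 in SL against SS and 0.47 in LL against LS. Lcn2 (chromosome 2, 32384633 to 32388252), which binds bacterial siderophores, was at 283, 165 and 129.8 FPKM in SL, at 4.02, 13.6 and 6.84 in LL, at 1.29, 0.189 and 0.207 in LS and at 0.403, 0.0663 and 0.0826 in SS. LL lay above LS in every animal and far below SL, with responses of 8.10 (SE 0.47) and 3.02 (SE 0.47; adjusted p = 0.00583). Of 28 reactive astrocyte genes, 23 rose in SL, and 16 were lost, 4 partly kept and 3 unresolved, and without LS replicates 2 and 3, 18 were lost and 5 unresolved. The filter was passed only through SL by 3 of the 28. The lists share members, so their counts are not separate. Lcn2, Steap4 and Cp, partly kept here, are also acute-phase genes, and Psmb8 is also a class I gene. Lrg1 and Il1r1 are in both the acute-phase and the endothelial activation lists. Gfap (chromosome 11, 102887336 to 102900912), the intermediate filament of astrocytes, was at 542, 382 and 357 FPKM in SL and at 122, 130.3 and 116 in LL. It was at 111, 98.3 and 113 FPKM in LS and at 88.8, 87.9 and 85.0 in SS. The LL animals were all above the LS animals, but by 0.19 (SE 0.13), which did not pass the test (adjusted p = 0.583), against a rise of 2.26 (SE 0.13) in SL.

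Among 17 endothelial activation genes, 15 rose in SL, and 7 were lost, 2 partly kept, 2 retained and 4 unresolved. The counts lacking LS replicates 2 and 3 were 8 lost, 2 retained and 5 unresolved. Sele, which passed the filter only through SL and is the selectin that slows leukocytes on the vessel wall, reached 9.72 ± 1.48 FPKM in SL but only 0.176 ± 0.183 in LL, with responses of 4.33 and 0.31 (adjusted p = 0.515 for the second). Vwf, the clotting factor carrier stored in endothelium, was retained, at 2.25 ± 0.255 FPKM in SS against 5.15 ± 0.514 in SL, and 2.32 ± 0.0866 in LS against 4.76 ± 0.429 in LL. Its responses were 1.04 (SE 0.09) and 0.90 (SE 0.09), with an interval of the interaction from -0.43 to 0.15. Of 14 matrix proteases and inhibitors, 9 rose in SL, and 6 were lost, 1 partly kept and 2 unresolved, against 4 lost and 5 unresolved without LS replicates 2 and 3. Mmp3, a matrix metalloproteinase that passed the filter only through SL, was at 35.9, 19.2 and 11.2 FPKM in SL and at 0.067, 0.0499 and 0.047 in LL, where its difference from LS was 0.03 (SE 0.31). Of 11 neutrophil markers tested, all rose in SL and 8 were lost, 2 partly kept and 1 unresolved. Of the 11, 7 passed the filter only through SL, and 6 of them are among the lost, so their class follows in part from the filter. Leaving out LS replicates 2 and 3 gave 6 lost and 5 unresolved. S100a9, a calcium-binding protein of neutrophil granules, was at 135, 90.5 and 67.5 FPKM in SL, at 2.85, 1.38 and 2.84 in LL and at 0.848, 0.381 and 0.832 in LS. The LL difference of 1.24 did not pass the test (adjusted p = 0.0723), although LL and LS did not overlap. The neutrophil marker Ly6g was at 0 in all LS and all LL libraries, and Elane was at 0 in all SS, SL and LS libraries.

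**Figure D2:**
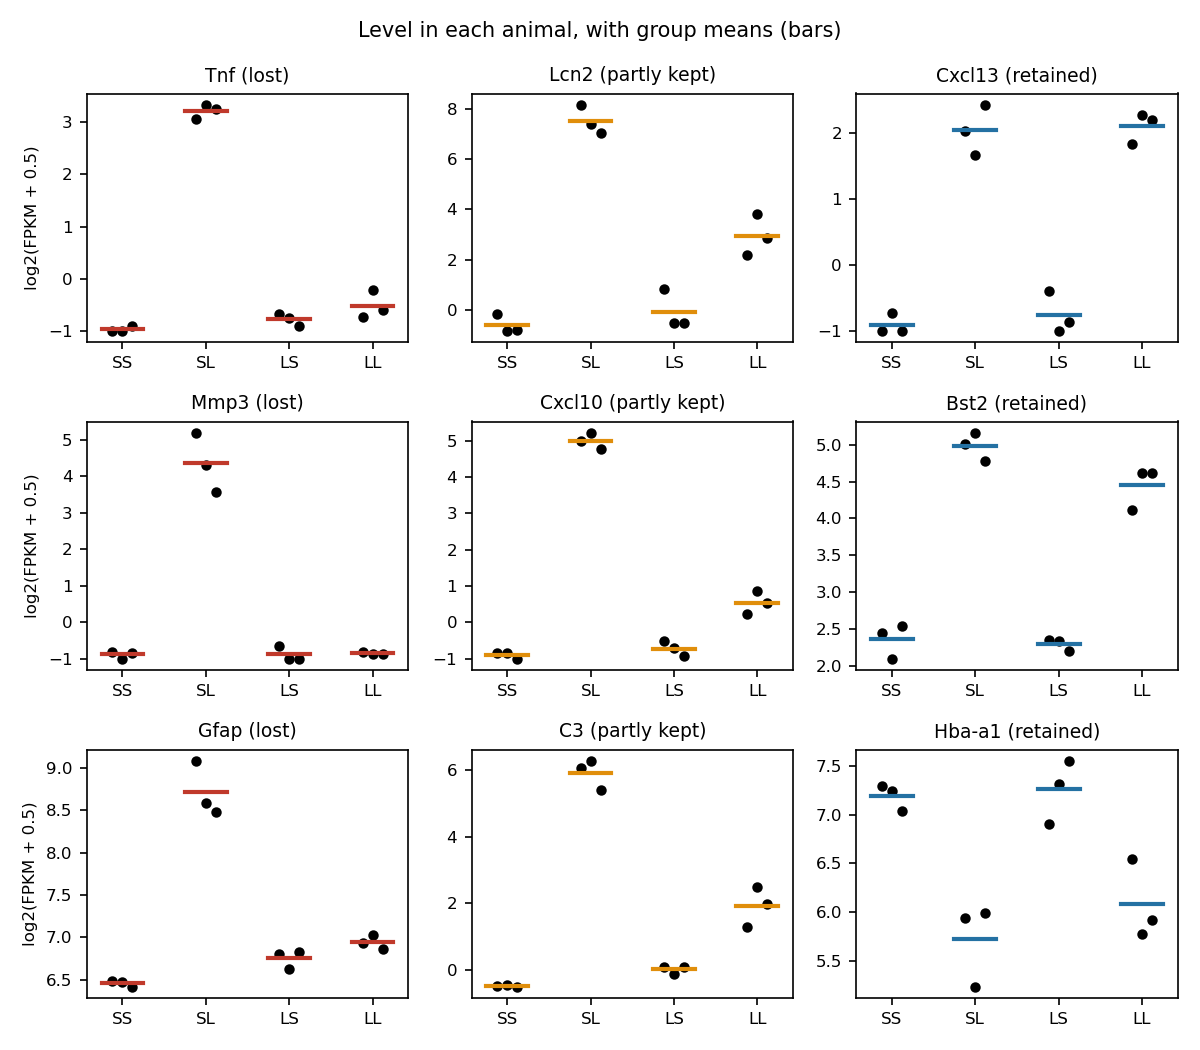
Level of 9 genes in each animal in log2(FPKM + 0.5), with a bar at each group's mean, for 3 lost, 3 partly kept and 3 retained responses. In the lost column only SL is raised, in the middle column LL lies between LS and SL, and in the right column SL and LL are moved by similar amounts from SS and LS.

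Genes raised by interferon, genes of class I antigen presentation, complement and phagocyte genes kept a larger median share of their rise, which is a description of the lists without a test between them. Of 52 type I interferon-stimulated genes tested, 51 rose in SL and 36 in LL, and of the 51, 6 were lost, 16 partly kept, 20 retained and 9 unresolved. The median rise of the list was 1.54 in SL and 0.77 in LL, and the median share of the log2 rise that was kept was 50.1%, against 13.03% for the feedback inhibitors and 25.2% for all 1249 rises. Without LS replicates 2 and 3, 6 of the 52 were called in LL, and 8 were lost, 1 partly kept, 5 retained and 36 unresolved, while the medians were 1.54 and 0.79. Isg15 (chromosome 4, 156199424 to 156200818), a ubiquitin-like antiviral protein, was at 15.2, 23.3 and 19.9 FPKM in SL and at 4.26, 5.17 and 7.44 in LL, beside 1.76, 1.71 and 1.58 in LS. LL lay between LS and SL without overlap, and the responses were 3.39 (SE 0.21) and 1.46 (SE 0.21; adjusted p = 0.00349). Bst2 (chromosome 8, 71534255 to 71537456), which tethers virus particles to the cell surface, was at 31.5, 35.3 and 27.1 FPKM in SL and at 16.8, 24.0 and 24.0 in LL, against 4.09 to 4.63 in LS and 3.78 to 5.34 in SS. It was retained, with responses of 2.62 (SE 0.15) and 2.15 (SE 0.15) and an interval of the interaction from -0.94 to 0.01.

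Of 13 interferon-inducible GTPases, all rose in SL, and 3 were lost, 6 partly kept and 4 retained. Leaving out LS replicates 2 and 3 gave 7 lost and 6 unresolved. Of 20 class I antigen presentation genes, 18 rose in SL and 14 in LL, with 2 lost, 6 partly kept, 7 retained and 3 unresolved. When LS replicates 2 and 3 were left out, 4 were called in LL, with 4 lost, 1 partly kept, 3 retained and 10 unresolved. Of 6 class II genes tested, 1 rose in SL and was unresolved. H2-K1 (chromosome 17, 33996017 to 34000333), a class I heavy chain, was at 52.9, 44.1 and 37.8 FPKM in SL, at 21.7, 28.6 and 27.5 in LL, at 9.65, 10.1 and 9.45 in LS and at 7.54, 6.57 and 7.66 in SS. Its responses were 2.54 (SE 0.12) and 1.36 (SE 0.12), and the 4 groups did not overlap. Of 15 complement genes that rose in SL, among 19 tested, 1 was lost, 8 partly kept, 4 retained and 2 unresolved, and without LS replicates 2 and 3, 5 were lost, 3 partly kept, 3 retained and 4 unresolved. C3, the protein on which all complement pathways meet, kept 1.90 of a rise of 6.41 log2 units, with 1.92, 5.11 and 3.45 FPKM in LL against 0.564, 0.415 and 0.549 in LS. C1qb, a chain of the recognition molecule of the classical pathway, was at 57.1, 81.1 and 79.1 FPKM in SL and at 71.9, 84.7 and 81.9 in LL. These ranges overlapped, and the responses of 1.504 (SE 0.13) and 1.19 (SE 0.13) had an interval of the interaction from -0.71 to 0.08. Of 20 phagocyte genes, 19 rose in SL and 18 in LL, with 1 lost, 11 partly kept, 6 retained and 1 unresolved. In the fit lacking LS replicates 2 and 3, 18 rose in SL and 7 in LL, with 6 lost, 4 partly kept, 3 retained and 5 unresolved. Lyz2, a lysozyme of myeloid cells, was at 68.2 ± 6.89 FPKM in SL, 20.6 ± 0.692 in LL, 5.64 ± 0.984 in LS and 2.71 ± 0.317 in SS. It rose in both responses, by 4.42 and 1.79, and was also 0.93 higher in LS than in SS (adjusted p = 0.0103). Values in families of near-identical copies (H2 class I, Gbp, Ifit3, Saa, Hba, Hbb) are uncertain, because the treatment of fragments that fit several copies is not stated in the sources used.

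**Figure D3:**
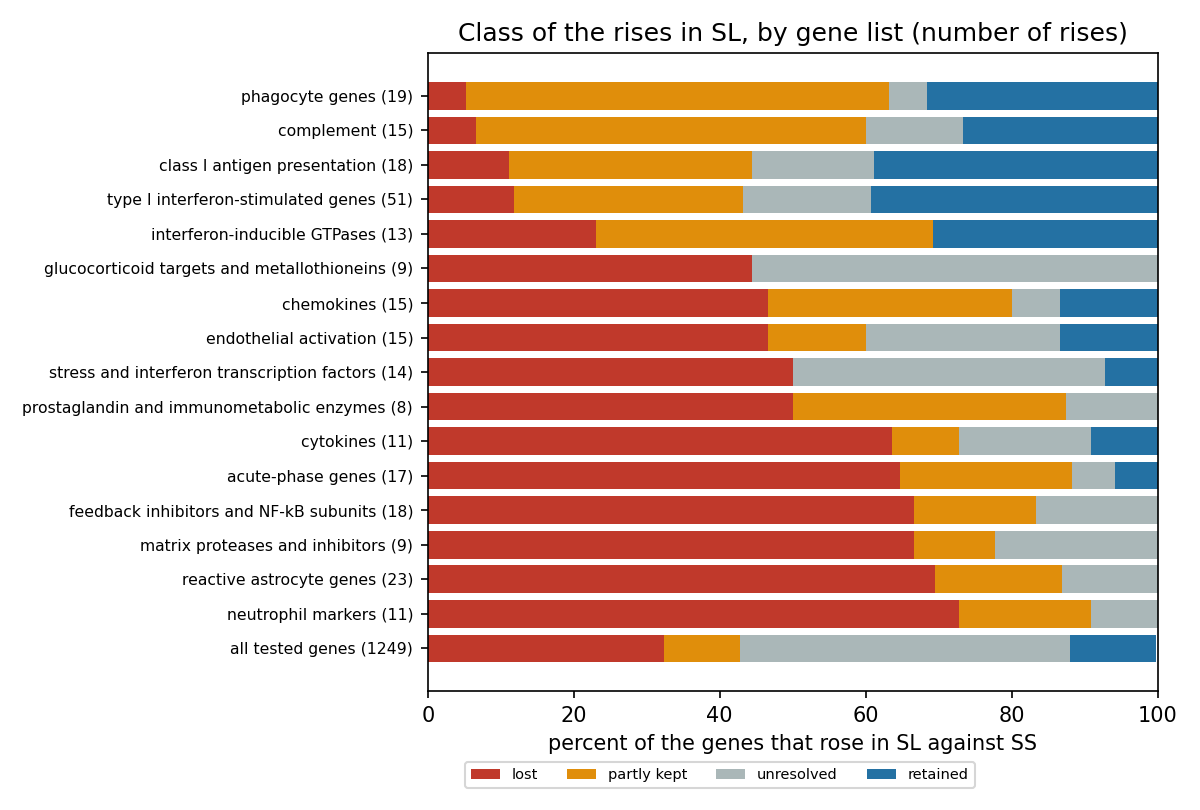
Share of the genes of each list with at least 8 rises in SL that were lost, partly kept, unresolved or retained, with the number of rises in brackets. The lower bar holds all 1249 rises, of which the 2 that were turned or enhanced are not drawn. Among the lists drawn, the share lost runs from 1 of 19 phagocyte genes to 8 of 11 neutrophil markers. The filter on low values was passed only through SL by 7 of these neutrophil markers and by 0 phagocyte genes. The order of the lists thus follows in part from the filter.

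Promoter sequences were read to see whether lost, partly kept and retained rises differed in the letters of known binding motifs. The windows run from 250 bases before to 50 bases after each start in RefSeq (GRCm38.p6), and motifs were searched on both strands. They were the NF-kB motif kB, the interferon-stimulated response element ISRE (GAAA, any 2 bases, GAAA), and the gamma-activated sequence GAS (TTCNNNGAA), to which STAT dimers bind. An ISRE and a GAS can share letters, and of 149 windows that held both, 24 held an overlapping pair. A kB match was in 12.1% of 387 windows of lost rises, 15.1% of 126 of partly kept rises and 11.4% of 132 of retained rises, against 5.47% of windows of tested genes and 4.51% of all 32851 windows. An ISRE match was in 5.43%, 16.7% and 14.4% of the same sets, in 2.94% of windows of tested genes and in 3.44% of all windows. For GAS the shares were 10.3%, 12.7% and 15.9%, with 6.74% of windows of tested genes and 8.3% of all windows. Windows were found for 310 of 405, 105 of 130 and 111 of 147 genes. The kB share was thus about equal in the 3 classes and the ISRE share was lower in lost rises, which is a description without a test. The windows of 4 genes described above are shown because they span these patterns, with every match in capitals: Cxcl1, lost, chr5:90890995-90891294, plus strand; Cxcl10, partly kept, chr5:92348840-92349139, minus strand; Isg15, partly kept, chr4:156200769-156201068, minus strand; and Bst2, retained, chr8:71537423-71537722, minus strand.
Cxcl1: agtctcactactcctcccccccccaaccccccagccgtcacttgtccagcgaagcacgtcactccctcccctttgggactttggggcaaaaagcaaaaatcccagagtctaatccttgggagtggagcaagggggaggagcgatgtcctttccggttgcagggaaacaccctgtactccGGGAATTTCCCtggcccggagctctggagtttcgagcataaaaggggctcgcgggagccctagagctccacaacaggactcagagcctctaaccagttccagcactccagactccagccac
Cxcl10: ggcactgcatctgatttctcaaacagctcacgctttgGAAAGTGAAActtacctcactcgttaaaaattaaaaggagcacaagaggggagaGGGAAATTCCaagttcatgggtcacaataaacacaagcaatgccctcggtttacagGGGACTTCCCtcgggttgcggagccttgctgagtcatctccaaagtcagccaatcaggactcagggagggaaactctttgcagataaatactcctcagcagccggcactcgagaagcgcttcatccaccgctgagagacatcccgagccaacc
Isg15: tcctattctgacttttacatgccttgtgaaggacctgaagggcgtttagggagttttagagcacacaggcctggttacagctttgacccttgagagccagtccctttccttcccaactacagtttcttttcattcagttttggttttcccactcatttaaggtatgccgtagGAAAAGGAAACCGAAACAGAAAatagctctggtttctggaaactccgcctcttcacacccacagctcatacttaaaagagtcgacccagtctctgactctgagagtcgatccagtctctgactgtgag
Bst2: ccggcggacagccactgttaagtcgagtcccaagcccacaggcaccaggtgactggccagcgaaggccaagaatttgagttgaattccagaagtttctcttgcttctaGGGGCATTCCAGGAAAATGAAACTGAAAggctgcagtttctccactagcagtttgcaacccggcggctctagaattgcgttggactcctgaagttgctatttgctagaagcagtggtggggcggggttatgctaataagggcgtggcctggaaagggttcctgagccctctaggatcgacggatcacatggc
Positions below count the first base of a match from the start of the gene. The capitals in Cxcl1 are 2 overlapping kB matches at -71 and -70. Cxcl10 holds an ISRE at -213 and kB matches at -159 and -103. Isg15 holds 3 overlapping ISRE matches at -78, -72 and -66 and no kB match. In Bst2 the run in capitals joins a kB match at -142, a GAS at -136 and ISRE matches at -130 and -124, each overlapping the next.

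Retained responses were further described by how closely the 2 changes could be held equal. Of the 163 retained genes, 19 had a 95% interval of the interaction within 50% of their SL change on either side, and these are the ones for which a large loss or gain is outside the interval. They were Cxcl13, Bst2, Lgals3bp, Tspo, Fcgr4, Cd72, Ctsc, Lgals9, Aif1, C1qb, C1qc, Ctss, Vwf, Clec2d, Spint1, Trim12c, Sdf2l1, Mpeg1 and Gusb. For Fcgr4, Aif1 and Cd72 the interval lay wholly below 0, the direction of a smaller LL response. It ran from -1.33 to -0.13 for Fcgr4 and from -0.80 to -0.13 for Aif1. Among the 147 retained rises, the interaction estimate was negative for 108, and the medians were 1.01 in SL and 0.75 in LL. Cd72, a lectin-like receptor of B cells and microglia, was at 3.27, 3.59 and 3.89 FPKM in SL and at 2.47, 3.36 and 3.23 in LL, with responses of 2.68 and 2.14 and an interval from -0.97 to -0.10. Aif1 (IBA1), an actin-binding protein of microglia, was at 2.45, 2.34 and 1.70 FPKM in SS against 7.57, 7.79 and 7.92 in SL, and at 3.47, 3.99 and 3.72 in LS against 9.14, 8.19 and 9.97 in LL. LL was the highest group and did not overlap SL, while LS stood above SS by 0.68 (adjusted p = 0.0316), so the LL response of 1.18 began from a higher level than the SL response of 1.64. Ifi27l2a, an interferon-induced gene, had responses of 2.34 (SE 0.39) and 2.59 (SE 0.39), with a wide interval of the interaction from -0.96 to 1.46. The retained falls included transcripts of red blood cells. Hba-a1, an alpha globin, was at 156, 150.4 and 131 FPKM in SS against 60.9, 37.2 and 63.0 in SL, and at 119, 159 and 187 in LS against 92.7, 54.2 and 60.1 in LL. It fell by 1.47 on the log2 scale in SL and by 1.18 in LL (SE 0.24 for both). The LL call was lost without LS replicate 2, LS replicate 3, LL replicate 2 or LL replicate 3, where the change was -1.15, -1.03, -1.03 and -1.10. Summed red blood cell transcripts were at 198 to 233 FPKM in SS against 57.7 to 93.4 in SL, and 177 to 266 in LS against 78.1 to 140.5 in LL.

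Falls were reduced too, among them those of resting microglia and of the cholesterol pathway. Of 16 resting microglia genes, 9 fell in SL (background 3.77%), and 6 of these were lost, 1 was partly kept and 2 were unresolved. Without LS replicates 2 and 3, 4 falls of that list were lost, with a median interaction of 0.80, against 0.71 in all libraries. P2ry12 (chromosome 3, 59216272 to 59262871), the nucleotide receptor that guides microglial processes, was at 14.6, 13.9 and 13.5 FPKM in SS and at 1.13, 1.53 and 1.87 in SL. It was at 10.2, 12.2 and 9.94 FPKM in LS and at 6.76, 5.26 and 5.401 in LL, so that LL lay below LS in every animal and above SL. The changes were -2.87 (SE 0.13) and -0.84 (SE 0.13), with an interaction of 2.03 (SE 0.19; adjusted p = 0.000119). Gpr34, a lysophospholipid receptor of microglia, had changes of -2.03 and -0.43, the second with an adjusted p = 0.351. Another pair of genes of that list rose in both responses, Csf1r, the receptor for the survival factor of microglia, and Cx3cr1, the fractalkine receptor. Cx3cr1 was at 10.5 ± 0.885 FPKM in SS against 14.2 ± 1.82 in SL, and 12.6 ± 0.401 in LS against 18.7 ± 1.66 in LL, with responses of 0.42 and 0.55 (SE 0.09 for both). Of 23 cholesterol synthesis genes, 19 fell in SL and 2 in LL, and 9 were lost, 1 partly kept, 1 retained and 8 unresolved. Hmgcs1, the synthase that feeds the mevalonate pathway, was at 87.2, 89.4 and 79.3 FPKM in SS against 46.4, 54.0 and 49.4 in SL, and at 88.6, 79.0 and 81.8 in LS against 75.5, 67.4 and 69.8 in LL. LL did not overlap LS, but the change of -0.23 (SE 0.07) did not pass the test (adjusted p = 0.159), against -0.77 in SL. Without LS replicates 2 and 3, limma called 0 interactions of that list, with 14 at an unadjusted p under 0.05 and the same median of 0.31 as in all libraries, in which limma voom called 11. Slco1c1, the thyroid hormone carrier of brain capillaries, was at 19.1 ± 1.34 FPKM in SS against 7.67 ± 1.66 in SL, and 16.8 ± 1.06 in LS against 20.8 ± 0.86 in LL, with changes of -1.28 (SE 0.12) and 0.30 (SE 0.12; adjusted p = 0.293).

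In all libraries, most choroid plexus genes were gained or turned. Of the 17 markers, 9 were gained, 6 turned, 1 was a lost fall and 1 was called in the interaction alone. Their median LL minus LS was 2.08 in all libraries and 0.78 without LS replicates 2 and 3. Their median interaction was 3.64 and 2.25 in the same fits. These classes thus rest in part on the 2 LS libraries with the lowest marker sums. Folr1, the folate receptor of choroid plexus epithelium, was at 13.2, 10.7 and 11.7 FPKM in SS against 3.61, 3.66 and 1.98 in SL, and at 5.69, 0.476 and 0.284 in LS against 12.7, 11.7 and 17.4 in LL. SS and LL were high, SL was low, and LS spread from above the SL level in replicate 1 to far below it in the others. The LL rise of 3.08 (SE 0.60) was not called without LS replicate 2, LS replicate 3 or any single LL library, with differences between 2.53 and 3.19 in those fits. Of the 55 gained rises, 9 are themselves among the markers averaged into the choroid plexus score. Of the other 46, 21 followed the score within groups, with a correlation over 0.8 across the 12 libraries as deviations from their group means, which share the library. Without LS replicates 2 and 3, 23 of the 55 interactions were called and 1 gene kept its class, and with the score as a covariate limma called 0 of the 55, with 5 at an unadjusted p under 0.05. With all libraries and no covariate, limma voom called 55. The median interaction of the 55 was 1.38 in all libraries, 1.07 without the 2 libraries and 0.25 with the covariate. The median interaction of the 45 turned falls was 1.81 in all libraries, 1.48 without the 2 libraries and 0.65 with the covariate. With the covariate, 1 of their interactions was called and 0 of the 45 kept their class. The fall in SL enters the interaction, so a positive interaction does not by itself show a rise in LL. Of the 45, 24 followed the score within groups with a correlation over 0.8, the 6 turned markers among them. The part of the choroid plexus in these responses cannot be told apart from the groups.

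Larger responses in LL were also found outside that list. Naaa (chromosome 5, 92257659 to 92278170), a lysosomal amidase of fatty acid ethanolamides, was the gained gene that kept its class without LS replicates 2 and 3 and was singled out after its values were seen. It was at 8.79, 9.40 and 8.13 FPKM in SS against 8.07, 8.96 and 9.32 in SL, and at 7.23, 7.45 and 7.89 in LS against 12.1, 11.9 and 13.6 in LL. Only LL was high. The difference was 0.00 (SE 0.07) in SL and 0.70 (SE 0.07) in LL, with an interaction of 0.70 (SE 0.10; adjusted p = 0.00243), and 0.75 (adjusted p = 0.0241) without the 2 LS libraries. It was gained in all 12 fits that left out 1 library, and its correlation with the choroid plexus score within groups was -0.23. With that score as a covariate, limma did not call its interaction (0.82, adjusted p = 0.167). Lgmn (chromosome 12, 102394084 to 102439813), a lysosomal endopeptidase, was at 48.1, 51.2 and 48.7 FPKM in SS against 54.5, 60.7 and 59.3 in SL, and at 48.6, 48.0 and 51.5 in LS against 70.6, 76.0 and 72.9 in LL. Both responses passed the test, 0.23 (SE 0.05) in SL and 0.56 (SE 0.05) in LL, with an interaction of 0.33 (SE 0.07; adjusted p = 0.0228). That interaction was not called without SS replicate 2, LS replicate 2, LL replicate 2 or LL replicate 3, at 0.30, 0.31, 0.30 and 0.33, nor without LS replicates 2 and 3, at 0.35 (adjusted p = 0.101).

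**Figure D4:**
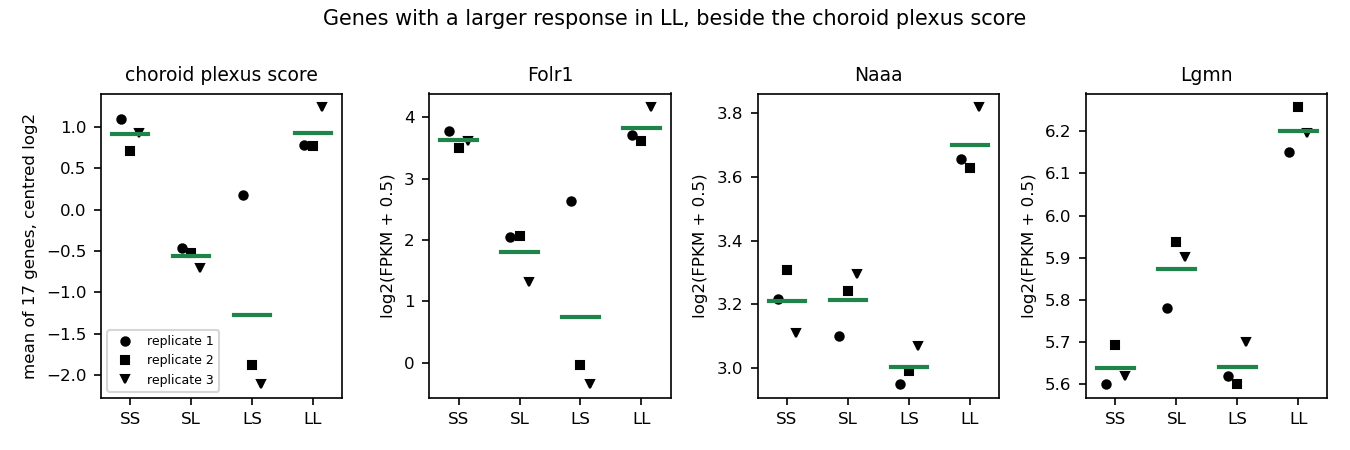
The choroid plexus score (mean log2 level of 17 markers, centred over libraries) and the level of Folr1, Naaa and Lgmn in each animal in log2(FPKM + 0.5), with bars at group means and a symbol for each replicate. Folr1 follows the score, with LS replicates 2 and 3 lowest in both, whereas Naaa and Lgmn are close together within LS and highest in LL.

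The interaction is also the difference between LL minus SL and LS minus SS, so a smaller response can come with a lower LL level or with a changed LS level. Of the 536 lost, partly kept or turned rises (3.03%), 495 were lower in LL than in SL, 367 among the lost, 127 among the partly kept and 1 turned. Their choice by a rise in SL and a negative interaction in the same libraries favours LL below SL, so this count is a description. LS was above SS at 10 of the lost and partly kept rises together, 1 of the lost and 9 of the partly kept. Over all tested genes, 966 were lower in LL than in SL (5.46%) and 588 higher (3.32%), and 26 were higher in LS than in SS (0.147%) and 29 lower (0.164%). The medians for lost rises were -0.93 for LL minus SL and 0.09 for LS minus SS, and for partly kept rises -1.14 and 0.20. On the linear scale, the FPKM difference of LL minus LS was smaller than that of SL minus SS for all 405 lost and all 130 partly kept rises. Because these rises were chosen by a negative log2 interaction in the same libraries, this is no separate evidence on the linear scale. Retained rises were divided on that scale, with 106 of 147 smaller and 41 larger in LL.

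The classes end at a threshold, and values near it differ little. The called interactions nearest to 0.05 were those of Rftn2 (-0.41, adjusted p = 0.0499) and Prr5l (-0.86, adjusted p = 0.0499), and the nearest not called were those of Ocln (0.59, adjusted p = 0.0502) and Cd74 (-1.29, adjusted p = 0.0502). In fits that left out each library in turn, 335 of 611 lost, 76 of 133 partly kept, 53 of 163 retained, 5 of 46 turned, 8 of 62 gained and 0 of 1 enhanced genes stayed in their class in all 12 fits. Dpysl4, a cytoskeletal protein of neurons, was the turned rise: it was at 17.03 ± 0.203 FPKM in SS against 19.9 ± 0.991 in SL, and 19.997 ± 0.378 in LS against 16.9 ± 0.214 in LL, with changes of 0.22 and -0.24 (SE 0.04 for both).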

How the data were processed

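RNA of whole hippocampi of 12 mice was sequenced, 3 per group, and each library is a separate animal. The authors deposited FPKM per Ensembl gene with gene length and mm10 position, per the file headers. HISAT2 2.0.5, featureCounts 1.5.0-p3 and mm10 are named in the submitters' processing notes. Strand setting, shared fragments and the scaling total are not stated there. FPKM times length gave whole multiples of 1 step per library within 0.01 for 100% of 309337 values above 0, so fragment totals were recovered. Replicates differed by more than sampling noise (chi-square per gene 3.95 to 13.5), and none was a repeat. limma 3.58.1 (R 4.3.3) was fitted to log2(FPKM + 0.5) with 1 mean per group, 8 residual degrees of freedom, a mean trend and two-sided Benjamini-Hochberg adjustment over 17687 genes per contrast, at 0.05. Log2 changes understate those of low genes. Intervals are 95% of the fit. The script was tested on simulated data. Classes follow the 3 calls given in the report. Members and lists were chosen with earlier results of these data known. Named genes are up to 6 protein-coding genes per class and direction whose mean reaches 1 FPKM in some group, ranked by the interaction (retained: by the smaller response), up to 2 per list and class, and a short set named in any case. Names outside this rule (the 19 bounded genes, Naaa, Lbp, Ly6g and Elane) were chosen after values were seen. Promoters are from RefSeq (GRCm38.p6). Alternatives were other pseudocounts, filters, scalings, a replicate block, a choroid plexus covariate, protein-coding genes, a threshold of 0.01, libraries left out and, chosen after seeing the data, limma voom on whole fragments. A result that is withheld is not reported here.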

Additional observations from a re-analysis of the deposited data

Results flagged for a closer look

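Responses to day-14 LPS that differed between animals given saline and LPS on day 3, by the test of that difference itself (limma interaction, adjusted p under 0.05), were negative for 564 genes and positive for 378. Of these, 46 were called in opposite directions in the 2 backgrounds, 45 of them falls in SL that were rises in LL. Choroid plexus markers, whose summed level moved with the groups, were 6 of the 46. Of the 45 falls, 24 followed the choroid plexus score within groups with a correlation over 0.8, these 6 markers among them. What part the choroid plexus has in these counts was not tested apart from the 2 settings given with the processing.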

How the results depend on the processing

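The classes rest on thresholds in 3 contrasts of 3 animals a group. The 7 counts (negative and positive interactions; reduced, retained, enhanced or gained, and unresolved responses; reduced rises with LL below SL) were 564, 378, 790, 163, 63, 961 and 495. Without LS replicates 2 and 3, with fewer samples, they were 287, 134, 401, 33, 1, 1441 and 281. With the choroid plexus covariate they were 66, 20, 83, 22, 3, 1065 and 66, and at a threshold of 0.01 they were 332, 154, 420, 82, 12, 667 and 316. With each library left out they ranged from 461 to 608, 259 to 407, 608 to 805, 82 to 176, 18 to 106, 735 to 1121 and 409 to 509. Leaving out LS replicate 1 gave 106 enhanced or gained responses, LS replicate 2 gave 18, LS replicate 3 gave 18, LL replicate 2 gave 20 and LL replicate 3 gave 19. Retained responses were 98 without LS replicate 2, 97 without LS replicate 3, 82 without LL replicate 2 and 86 without LL replicate 3. Other settings kept all 7 counts within 1.5 times, among them limma voom, chosen after seeing the data, with 528, 451, 807, 229, 80, 976 and 457. Under the covariate the interaction reversed for Aqp1 (-0.78), Clic6 (-0.41), Cldn2 (-0.74) and Ttr (-2.45), and the LL response for Aqp1 (-0.13), Clic6 (-0.13), Cldn2 (-0.11) and Kcnj13 (-0.073); the cause was not tested. For named genes, 4366 alternatives kept call and direction, 760 lost the call in the same direction and 8 reversed. No pairing by replicate number was seen, since 18 same-numbered pairs correlated at -0.07 to 0.10 with 0 above 0.1. These correlations cannot show that there was none. With the replicate block the counts were 543, 372, 761, 136, 68, 1012 and 477. A quasi-likelihood count test and voom with TMM scaling were planned and not run; voom used median-ratio library sizes. Depth limits genes under about 0.1 FPKM, which rest on a few fragments.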
